A study of Mus musculus with 23 samples.

Results

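The 10 genes described here encode enzymes of glycolysis and of lactate formation: Hk1, Gpi1, Pfkm, Aldoa, Tpi1, Gapdh, Pgk1, Pgam1, Pkm and Ldha. They were found by their mouse symbols among the 55487 Ensembl gene IDs that every library was counted on. All 10 were found, and Aldoa was carried by 2 IDs, of which the second, with 615 counts in all 23 libraries together, was not used. The cells were hippocampal neurons of C57Bl/6 mouse pups of postnatal day 1, seeded on the soma side of 2-sided microfluidic chambers, so that neurites could grow across to an axonal side. All cultures, controls included, grew in medium with magnetic nanoparticles at 5 µg/ml. Stretched cultures were held in a magnetic field gradient of 50 T/m from day in vitro 1 to day 6, which pulls on the particles, and control cultures in a null gradient. RNA of the axonal side, called a pure axonal preparation in the labels, gave 5 control and 6 stretched libraries, and RNA of the soma side, called total cell culture, gave 6 control and 6 stretched libraries. The labels do not say that libraries of a group came from separate animals or cultures, so p-values measure the spread between these libraries, which may be technical.

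Glycolysis splits glucose into pyruvate in the cytosol and yields ATP without oxygen. Neurons also run it in axons, far from the cell body, where enzymes of the pathway travel with vesicles and can supply local transport with ATP. Hexokinase, glucose-6-phosphate isomerase, phosphofructokinase, aldolase and triosephosphate isomerase form the upper, ATP-consuming part of the route, glyceraldehyde-3-phosphate dehydrogenase to pyruvate kinase the lower, ATP-forming part, and lactate dehydrogenase turns pyruvate into lactate and restores NAD+.

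Gene counts summed to between 16369153 and 43048953 per library, so that 3 counts, taken as the floor of detection, stood for 0.0697 to 0.183 CPM (counts per 1000000 gene counts of the library). Soma libraries held counts for 22452 to 24575 genes and axonal libraries for 4263 to 10242. The summed level of 9 neuronal markers was 7175 to 9094 CPM in somata and 2892 to 5947 CPM in axons, where 5 to 9 of the 9 had a count. The 8 astrocyte markers summed to 4771 to 12976 CPM in somata and 3978 to 21496 CPM in axons. Their median was 17035 CPM in control axons against 7797 CPM in control somata, and 7247 CPM in stretched axons against 7969 CPM in stretched somata. The neuronal median was 3638 CPM in control axons against 8438 CPM in control somata, and 3574 CPM in stretched axons against 7521 CPM in stretched somata. The 4 nuclear or dendritic markers Malat1, Meg3, Camk2a and Map2 summed to 1029 to 3277 CPM in the libraries labelled as pure axons and to 1834 to 3225 CPM in somata. The part of such transcripts and of astrocyte RNA in the axonal results was not tested. In such bulk samples, fewer cells of a type and less RNA per cell cannot be told apart. In a principal component analysis of the 12 soma libraries, control replicate 4 took a place among the stretched libraries on component 1, at 19.2 against 9.71 to 26.0 in the stretched and -31.3 to -21.7 in the other control libraries. The soma libraries also fell into 2 sets by the Y-linked gene Eif2s3y, at 24.7 to 28.7 CPM in control replicates 1, 2 and 3 and stretched replicates 1, 2 and 8, and at 5.39 to 13.2 CPM in the other 6.

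Per kilobase of annotated exons, the order of the 10 levels in control somata began with Pkm, the pyruvate kinase gene, at 330 ± 30.8 CPM per kb (SD, n = 6), and Aldoa, encoding aldolase A, at 314 ± 7.02. Ldha, the lactate dehydrogenase A gene, followed at 250 ± 21.2, and Gapdh, which encodes glyceraldehyde-3-phosphate dehydrogenase, at 218 ± 29.3. Pkm and Aldoa lay within their spread of each other, as did Ldha and Gapdh. Tpi1, for triosephosphate isomerase, stood at 115 ± 7.27 CPM per kb, Pgk1, for phosphoglycerate kinase, at 103 ± 10.5 and Pgam1, for phosphoglycerate mutase, at 81.1 ± 7.79. The 3 lowest per kb of exons were the enzymes of the first steps, which did not differ beyond their spread. Hk1, hexokinase 1, stood at 49.0 ± 1.48 and Pfkm, the muscle type of phosphofructokinase, at 47.6 ± 10.5. Gpi1, glucose-6-phosphate isomerase, stood at 45.3 ± 8.72. This grouping depends on the length used. By all windows of the principal transcript, described below, Hk1 took place 7, Gpi1 place 8, Pgam1 place 9 and Pfkm place 10. Per kb of exons, control axons put Pkm (484 ± 116 CPM per kb, n = 5) and Aldoa (470 ± 125) first as well. Gpi1 (42.0 ± 33.2), Hk1 (28.1 ± 29.1) and Pfkm (11.7 ± 13.2) came last, with SDs near the size of the means. By all windows, control axons put Gpi1 in place 7, Pgam1 in place 8, Hk1 in place 9 and Pfkm in place 10. The 10 genes together made up 0.530% to 0.615% of all counts in control somata, 0.450% to 0.507% in stretched somata and 0.525% to 0.903% in the axonal libraries.

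**Figure D1:**
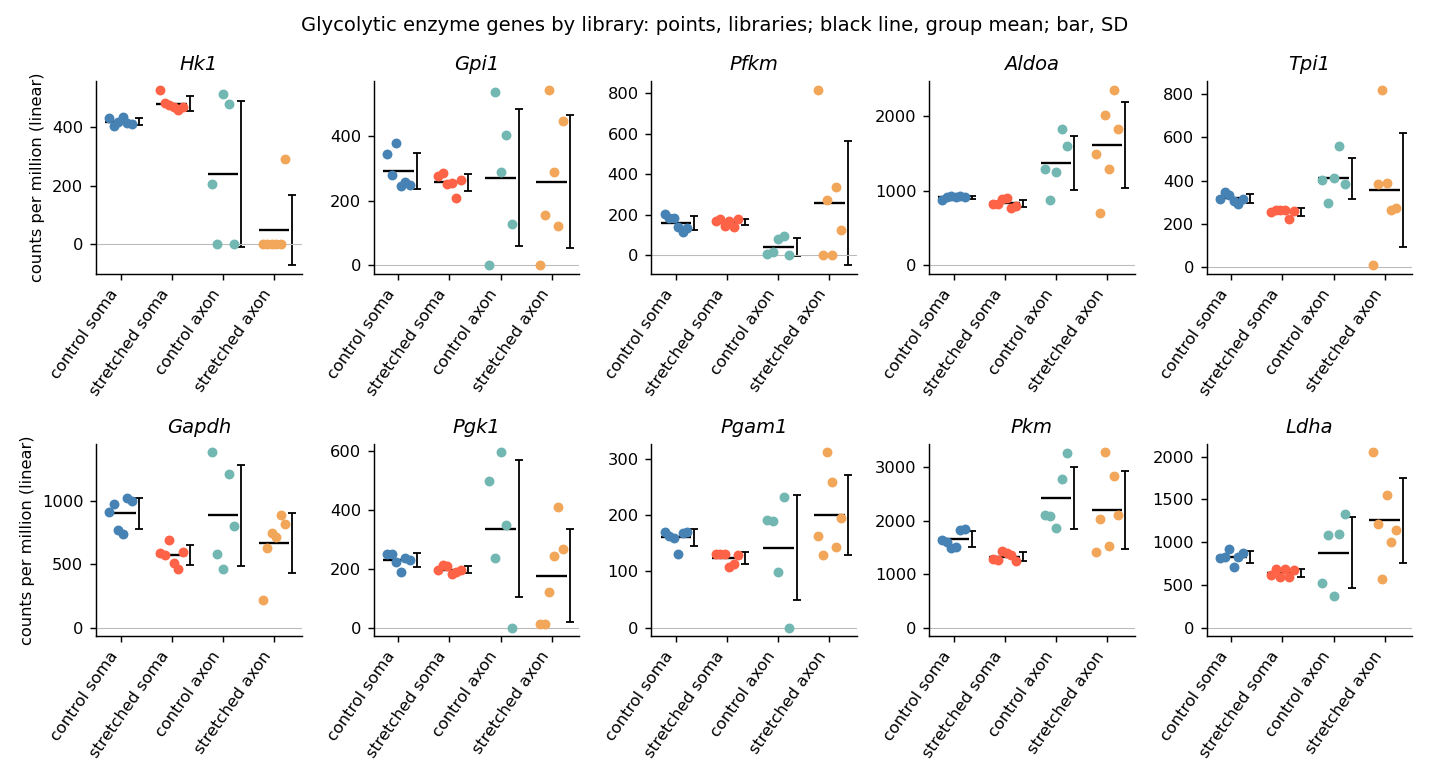
Level of each of the 10 genes in every library, in CPM on linear axes that differ between panels; points are libraries, the black line is the mean and the bar the SD of each group. Soma libraries lie close together, while axonal libraries of 1 group spread far more widely, down to 0 or nearly 0, for Hk1, Gpi1, Pfkm, Pgk1 and Pgam1.

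These levels rest on reads placed at a single site, and glycolytic genes are known for processed pseudogenes, copies of their mRNA inserted elsewhere in the genome. Of the 100-base windows along the principal (APPRIS) Gapdh transcript (1420 bases, gene at chr6:125161715-125166467, minus strand, GRCm38), 78.0% recurred exactly in annotated transcripts of 86 other genes. The share was 67.0% for Pgk1 (chrX:106187100-106203699, plus strand), 39.7% for Pgam1 (chr19:41911923-41918660, plus strand), 9.82% for Pkm (chr9:59656368-59679375, plus strand) and 7.40% for Gpi1 (chr7:34201330-34230336, minus strand). It was 1.32% for Ldha (chr7:46841475-46855627, plus strand), 0.796% for Tpi1 (chr6:124810586-124814296, minus strand) and 0 for Aldoa (chr7:126795234-126800751, minus strand), Hk1 (chr10:62268855-62379908, minus strand) and Pfkm (chr15:98092589-98132451, plus strand). The next sequence is shown because it is the coding window of Gapdh with the most exact repeats, in 40 other genes (bases 982 to 1081 of the transcript):
Gapdh window: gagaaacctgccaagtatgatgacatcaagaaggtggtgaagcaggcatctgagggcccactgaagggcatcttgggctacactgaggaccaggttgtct
A read pair that falls wholly inside such a window cannot be assigned to 1 gene. The Gapdh pseudogene Gm2606 on chromosome 15 matched 998 of the 999 coding bases of Gapdh, and the stretch around its 1 difference, in capitals, shows how little separates them (C583T, Gapdh first, counted from 1 at the coding start):
Gapdh: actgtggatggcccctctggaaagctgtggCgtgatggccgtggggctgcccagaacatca
Gm2606: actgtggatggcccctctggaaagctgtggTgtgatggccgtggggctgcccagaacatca

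Of 153 pseudogenes at least 90% identical to Gapdh over at least 200 bases, 135 had a count, and their counts came to 1.23% of those of Gapdh in somata and 3.87% in axons. For the other 9 genes this share was at most 0.136% in somata and 0.126% in axons. Divided by the windows that were not repeated instead of by all windows, the control soma level was 3112 CPM per 1000 windows for Gapdh against 785 for Pkm. Places by all windows of the principal transcript differ from those per kb of exons, where Gapdh came after Pkm, Aldoa and Ldha. From the places by all windows, Gapdh moved from place 2 of the 10 to place 1, Pgk1 from 6 to 5, Pgam1 from 9 to 7 and Hk1 from 7 to 9. The order of the levels of Gapdh, Pgk1 and Pgam1 against the others is uncertain for this reason and because it depends on the length used. Overlapping genes add to this for Pkm, of whose exons 15.3% are shared with Gm49759, for Gpi1 (11.5%, Gm26762) and for Pfkm (10.2%, Gm26513). Within a gene, the share of repeated sequence is the same in all libraries, while the share of reads placed at several sites was 5.77% to 7.56% of all entries of a table, uncounted totals included, in control somata, 5.43% to 6.89% in stretched somata and 6.48% to 13.4% in axons. Its part in the differences below was not tested.

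**Figure D2:**
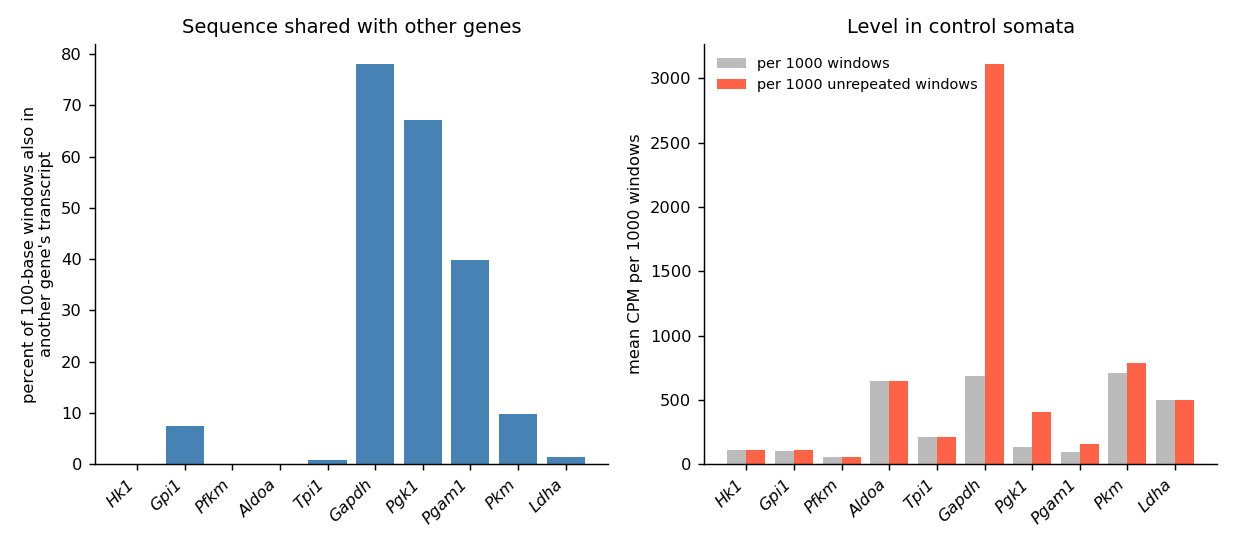
Left, percent of each gene's 100-base windows found in a transcript of another gene; right, mean CPM in control somata per 1000 windows, counting all windows (grey) or only those not repeated (red). Gapdh, Pgk1 and Pgam1 have 78.0%, 67.0% and 39.7% of windows repeated, and only for these do the bars on the right part widely.

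The comparison of stretched with control somata asks what the magnetic pull did to the cell-body side. Of the 10 genes, 7 were lower in stretched somata and 0 were higher (edgeR's quasi-likelihood test, adjusted p under 0.05). Over all 15632 genes tested, 25.1% were called, 13.9% lower and 11.2% higher. The median log2 fold change was -0.31 for the 10 genes and -0.03 for all genes. A narrower background held the 833 genes within the members' ranges of soma CPM and principal transcript length, members included. Of these, 27.3% were lower and 11.2% higher, with a median of -0.11. They share only the outer limits of these ranges. The lower part of the pathway and lactate dehydrogenase accounted for 5 of the 7, with aldolase and triosephosphate isomerase as the others.

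Gapdh showed the largest difference of the 10. Its level was 738 to 1023 CPM in control somata, with a median of 941, and 463 to 691 CPM in stretched somata, with a median of 580. The 2 groups did not overlap, and the lowest control library was replicate 4. The log2 fold change was -0.71 (SE 0.11, n = 6 and 6, edgeR adjusted p = 0.0029). Ldha fell from 708 to 915 CPM, median 828, to 586 to 686 CPM, median 644, again with no overlap. On the log2 scale this was -0.41 (SE 0.07, edgeR adjusted p = 0.0041).

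Pkm, the last ATP-forming step, ranged from 1491 to 1847 CPM in control somata, median 1619, and from 1237 to 1428 CPM in stretched somata, median 1317. Tpi1, which interconverts the triose phosphates that aldolase makes, ranged from 291 to 346 CPM, median 315, and from 222 to 265 CPM, median 262. Both fell without overlap, Pkm by a log2 change of -0.36 (SE 0.08, edgeR adjusted p = 0.0084) and Tpi1 by -0.36 (SE 0.07, edgeR adjusted p = 0.0052). Over all genes tested, the ranges of the groups were apart in 2.27% in the lower and 1.84% in the higher direction. Pgam1 went from 131 to 171 CPM, median 166, to 109 to 132 CPM, median 130. Only control replicate 4, at 131 CPM, reached into the stretched range, and the log2 fold change was -0.41 (SE 0.09, edgeR adjusted p = 0.0069).

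Pgk1 and Aldoa were called with smaller differences and with overlapping groups. Pgk1 had 188 to 251 CPM in control and 181 to 211 CPM in stretched somata, a fitted log2 difference of -0.27 (SE 0.08, edgeR adjusted p = 0.031). Aldoa had 876 to 933 CPM and 764 to 894 CPM, a fitted log2 difference of -0.18 (SE 0.06, edgeR adjusted p = 0.043). When each of the 12 libraries was left out in turn, Pgk1 passed in 4 of 12 fits and Aldoa in 2 of 12, while Gapdh, Ldha, Pkm, Tpi1 and Pgam1 passed in 12 of 12.

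The enzymes of the first 3 steps did not pass the test. Hk1, which phosphorylates glucose at the mitochondrial surface, stood at 401 to 435 CPM in control somata and at 457 to 526 CPM in stretched somata, so every stretched library was above every control library. Its log2 fold change of 0.16 (SE 0.06) had an edgeR adjusted p of 0.071, and of 0.042 without control replicate 4. Gpi1 had 244 to 378 CPM and 209 to 286 CPM (log2 fold change -0.22, SE 0.11, edgeR adjusted p = 0.15). Pfkm, 1 of 3 genes for phosphofructokinase, which catalyses the committed step, had 114 to 203 CPM and 140 to 176 CPM (log2 fold change -0.02, SE 0.13, edgeR adjusted p = 0.94). Across the 12 soma libraries, the standardized log level of Hk1 ran opposite to the mean of the other 9 genes (r = -0.69), that of Pfkm was unrelated (r = 0.10), and the remaining 8 correlated positively with the others (r from 0.63 to 0.92). These correlations describe libraries that share the 2 conditions and carry no test.

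By total counts alone, 6 genes were lower, Hk1 was higher (edgeR adjusted p = 0.022) and Aldoa did not pass (0.080). Of all 15632 genes tested, 1867 were then lower and 2138 higher. Without control soma replicate 4, 9 of the 10 genes were called, 8 lower and Hk1 higher. Of all 15857 genes tested in that fit, 6072 were called, 3183 lower and 2889 higher. Within the 6 libraries high in Eif2s3y, 6 of the 10 genes were lower and Hk1 was higher, beside 2014 lower and 2623 higher of 15867 genes tested. Within the 6 libraries low in Eif2s3y, which include control replicate 4, 0 of 10 and 0 of 15718 genes were called by edgeR at an adjusted p under 0.05, with 2739 genes at an unadjusted p under 0.05. The log2 fold changes there were of like size, -0.76 for Gapdh, -0.44 for Pgam1 and -0.40 for Ldha, each with an edgeR adjusted p of 0.27. Without control replicate 4, the same low set gave 4462 of 16237 genes called, 2313 lower and 2149 higher. Of the 10 members 6 were then called, all lower, with Gapdh at -0.92 (edgeR adjusted p = 0.012), Pkm at -0.45 (0.0015) and Ldha at -0.51 (0.0022). The astrocyte marker sum differed between these sets, at 9793 to 12976 CPM in the high and 4771 to 5871 CPM in the low set, and overlapped between control and stretched somata within each set. Pfkm and Gpi1 followed it in control somata, Pfkm at 181 to 203 CPM in the high set and 114 to 137 in the low set, and Gpi1 at 280 to 378 and 244 to 256. Neuronal markers were at 7435 to 9094 CPM in control and 7175 to 7637 CPM in stretched somata, microglial markers at 38.4 to 76.3 and 28.3 to 36.4 CPM, without overlap, and markers of the oligodendrocyte lineage at 42.7 to 74.1 and 39.8 to 57.3 CPM. The part of these differences in the result was not tested.

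**Figure D3:**
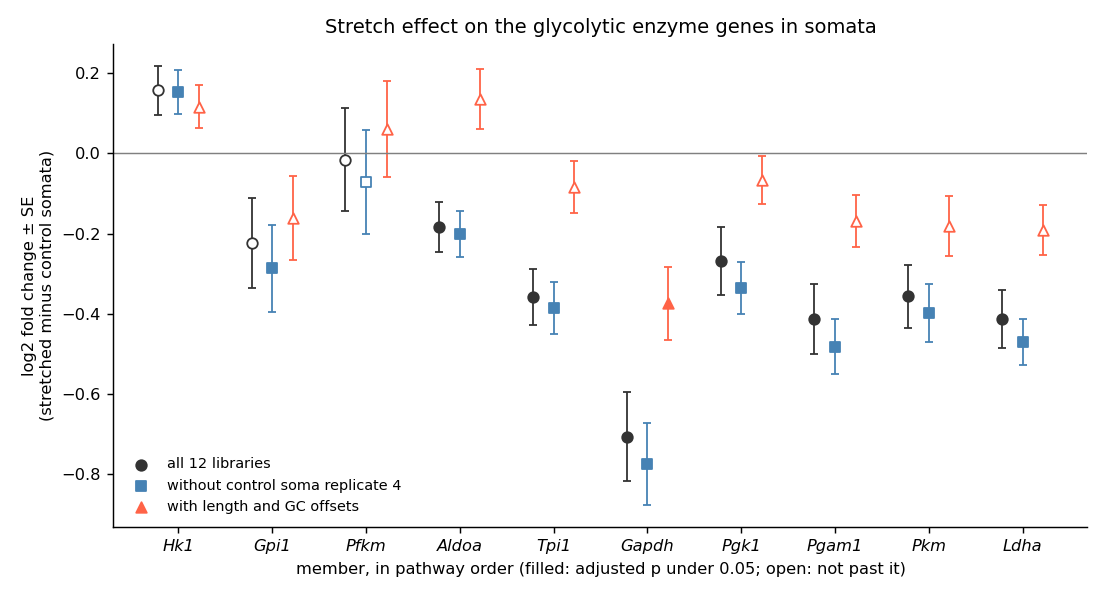
Log2 fold change with its SE for each gene, stretched minus control somata, with all 12 libraries (circles), without control soma replicate 4 (squares) and with offsets for transcript length and GC content (triangles); filled symbols pass an adjusted p of 0.05. Gapdh is the lowest under all 3, and with the offsets it is the one gene that passes.

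Transcript length moved with the stretch effect over the whole transcriptome. Across 15619 genes, Spearman's rho between the length of the principal transcript and the log2 fold change was 0.48, a description across genes, which are not independent replicates. Genes with a principal transcript of 1000 to 2000 bases had a median log2 fold change of -0.29 and were called lower in 29.4% of 3232 cases. This class holds Aldoa, Tpi1, Gapdh, Pgk1, Pgam1 and Ldha, 6 of the 10. Genes of 3000 to 4000 bases, the class of Hk1, had a median of 0.06, and those of 2000 to 3000 bases, with Pkm, Gpi1 and Pfkm, of -0.10. With offsets for the length and GC content of the principal transcript, an alternative added with the data in view, 1 of the 10 genes was called, Gapdh at -0.37 (SE 0.09, edgeR adjusted p = 0.019), beside 2182 genes in all. Gapdh also has an annotated transcript of 3289 bases, and with the longest transcript of each gene in place of the principal one its value was -0.65 (edgeR adjusted p = 0.0067), again as the 1 member called. With the principal-transcript offsets Ldha stood at -0.19 (edgeR adjusted p = 0.054), Pgam1 at -0.17 (0.095), Pkm at -0.18 (0.12) and Tpi1 at -0.08 (0.42). Aldoa changed sign, to 0.14 (0.24). Without control soma replicate 4, the principal-transcript offsets left Gapdh, Ldha and Pgam1 lower and Aldoa higher, and the longest-transcript offsets Gapdh lower and Aldoa higher.

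**Figure D4:**
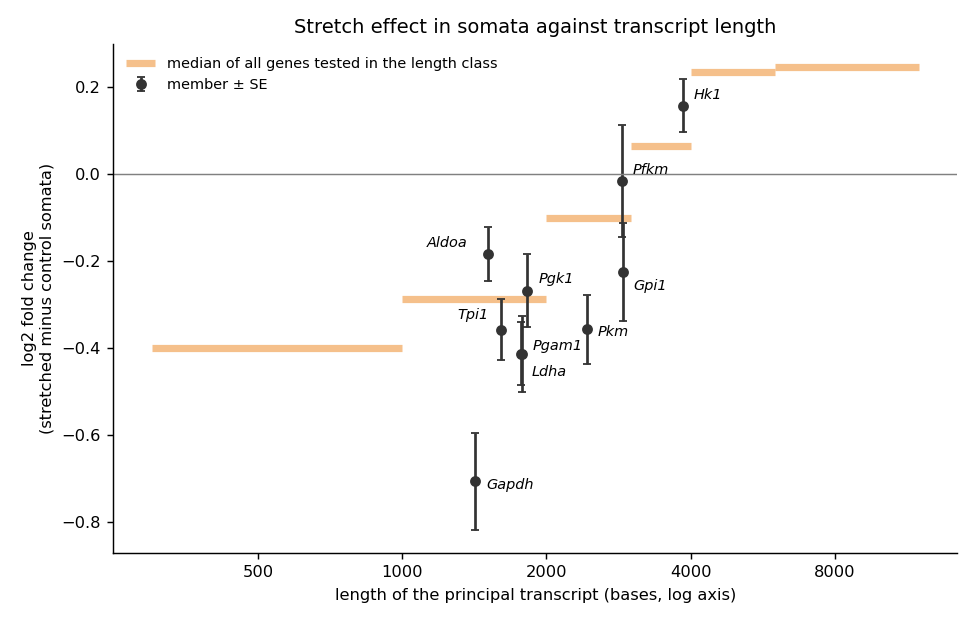
Log2 fold change in somata, stretched minus control, against the length of the principal transcript on a log axis; points are the 10 genes with their SE, and orange bars the median of all genes tested in each length class, of which the first and last are open-ended. The medians run from -0.40 under 1000 bases to 0.25 over 6000 bases, and Gapdh lies farthest below its class.

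Of 67 other genes of glucose metabolism, 59 were tested in somata, and 13 were lower and 7 higher, with a median log2 fold change of 0.00. Over all 15632 genes tested, 13.9% were lower and 11.2% higher. By total counts alone, 10 of these pathway genes were lower and 13 higher. Single libraries moved these counts, to 17 lower and 16 higher without control replicate 4, 7 and 7 without control replicate 5, 9 and 4 without control replicate 2, 8 and 5 without stretched replicate 6, and 9 and 11 without stretched replicate 4. Eno1, the ubiquitous enolase that fills the step between Pgam1 and Pkm, was lower at 919 to 1154 CPM against 1253 to 1559 CPM in control somata (log2 fold change -0.51, SE 0.08, edgeR adjusted p = 0.0029), with no overlap. Eno2, the neuronal enolase, was higher, by 0.61 on the log2 scale (SE 0.18, edgeR adjusted p = 0.025). Both were also called with the length and GC offsets, at -0.26 (edgeR adjusted p = 0.012) and 0.69 (0.035). Ldhb, the other lactate dehydrogenase, was lower at -0.47 (SE 0.16, edgeR adjusted p = 0.038), but stood at -0.13 (0.46) with these offsets and at -0.43 (0.053) by total counts. Among the isozymes, Hk2 (0.45, SE 0.19), Pfkl (-0.15, SE 0.08), Pfkp (-0.11, SE 0.08) and Aldoc (-0.28, SE 0.25) did not pass.

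The transporters that bring substrate in and carry lactate out parted. Slc16a1, the monocarboxylate transporter 1 gene, was higher at 108 CPM against 63.0 CPM (log2 fold change 0.74, SE 0.18, edgeR adjusted p = 0.011), and the glucose transporter 1 gene Slc2a1 lower at 32.1 against 41.5 CPM (-0.41, SE 0.11, edgeR adjusted p = 0.019). Slc2a3, the neuronal glucose transporter, stood at 0.46 on the log2 scale (SE 0.17, edgeR adjusted p = 0.054), and passed by total counts (0.039). Pfkfb2 (0.53, SE 0.12) and Pfkfb4 (0.44, SE 0.13), whose products set the level of fructose-2,6-bisphosphate, the activator of phosphofructokinase, were higher, as was Ugp2 of glycogen synthesis (0.37, SE 0.10). The glycerol-3-phosphate dehydrogenase gene Gpd1 (-0.61, SE 0.15) and the pentose phosphate genes Pgls (-0.56, SE 0.17) and Taldo1 (-0.52, SE 0.09) were the lowest of those called. With the principal-transcript offsets Pgls stood at 0.0099 (edgeR adjusted p = 0.97), Taldo1 at -0.18 (0.046) and Ugp2 at 0.30 (0.061). Of 15 genes that regulate or report the hypoxia response of the pathway, 2 were higher, Hif1a (0.41, SE 0.11, edgeR adjusted p = 0.014) and Epas1 (0.58, SE 0.14, edgeR adjusted p = 0.012), and 0 were lower. The number higher was near the share of all genes tested, 11.2%. With the length and GC offsets Hif1a and Epas1 stood at 0.19 (edgeR adjusted p = 0.13) and 0.43 (0.054).

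The motif ACGTG, on either strand the core of the response element bound by hypoxia-inducible factors and of E-boxes, occurred in a promoter window of 8 of the 10 genes, all but Gpi1 and Tpi1, and of 21.8% of all 27025 genes. The windows run from 250 bases before to 50 bases after a RefSeq start (GRCm38.p6), 18 for the 10 genes, some of which overlap, and 10 of the 18 held the motif, against 19.6% of 32851 windows overall. The related core GCGTG was found in windows of 5 of the 10 genes and of 35.2% of all genes, and in 7 of the 18 and 32.4% of all windows. Pgk1 and Ldha are shown because each held several matches before the start (250 bases, capitals mark ACGTG on either strand), at chrX:106186850-106187099 (plus strand) and chr7:46845554-46845803 (plus strand):
Pgk1 promoter: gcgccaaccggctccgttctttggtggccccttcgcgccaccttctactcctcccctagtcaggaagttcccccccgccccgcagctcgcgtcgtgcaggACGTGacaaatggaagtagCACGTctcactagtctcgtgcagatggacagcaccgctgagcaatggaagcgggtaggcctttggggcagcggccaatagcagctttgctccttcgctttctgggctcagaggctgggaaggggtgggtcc
Ldha promoter: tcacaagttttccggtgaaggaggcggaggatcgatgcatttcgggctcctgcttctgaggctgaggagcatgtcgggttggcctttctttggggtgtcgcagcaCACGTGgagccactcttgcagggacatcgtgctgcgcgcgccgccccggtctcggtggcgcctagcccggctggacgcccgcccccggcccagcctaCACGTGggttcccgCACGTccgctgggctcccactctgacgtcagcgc
Both genes were lower in stretched somata, and so was Tpi1, whose single window held neither motif. A match describes these letters and not a bound site.

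The genes whose pattern over the 12 soma libraries was most like the mean of the 10 were Gpx4 (r = 0.98), Atp5d (r = 0.97), Pebp1 (r = 0.97), Cox4i1 (r = 0.97) and Eif3k (r = 0.96), chosen among the 2358 others that averaged 100 CPM or more. They too were compared over libraries that share the 2 conditions.

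In axons, most of the 10 transcripts had counts in nearly every library. Aldoa, Tpi1, Gapdh, Pgk1, Pkm and Ldha had at least 1 count in 11 of 11 axonal libraries, Gpi1 and Pgam1 in 10, Pfkm in 9 and Hk1 in 6. With at least 10 counts asked for, Pgk1 was found in 10, Gpi1 in 9, Pfkm in 8 and Hk1 in 5, with no change for the other 6 genes. The 10 genes had a count in a median of 11 axonal libraries, and the 1547 genes with soma levels in the same CPM range in a median of 9. Those genes share only the outer limits of the members' mean soma levels, 142 to 1490 CPM. They were not matched level by level, so this does not compare genes of like level. Hk1 stood apart: its level was 207, 511 and 479 CPM in control axonal replicates 1, 3 and 5 and 0 in replicates 2 and 7. In stretched axons it had no count in replicates 2, 5 and 6, 0.0763 CPM in replicate 1, 2.80 CPM in replicate 4 and 289 CPM in replicate 8. A count of 0 allows up to the floor of 3 counts, at most 0.183 CPM, by counting error alone. Pfkm also spread widely but with values between, at 0 in control replicate 7 and at 6.84, 15.0, 78.5 and 94.5 CPM in control replicates 1, 2, 3 and 5. In stretched axons it was at 0 in replicate 2, 0.0701 CPM in replicate 5, and 124, 270, 334 and 817 CPM in replicates 8, 4, 6 and 1.

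Aldoa and Pkm had high levels in every axonal library. Aldoa had 1298, 871, 1246, 1825 and 1599.8 CPM in the 5 control axonal libraries and 702 to 2359 CPM in the stretched ones, median 1661. Pkm had 2107, 2086, 1866, 2779 and 3263 CPM in control axons and 1418 to 3272 CPM in stretched axons, median 2067. In both, the stretched range enclosed the control range.

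**Figure D5:**
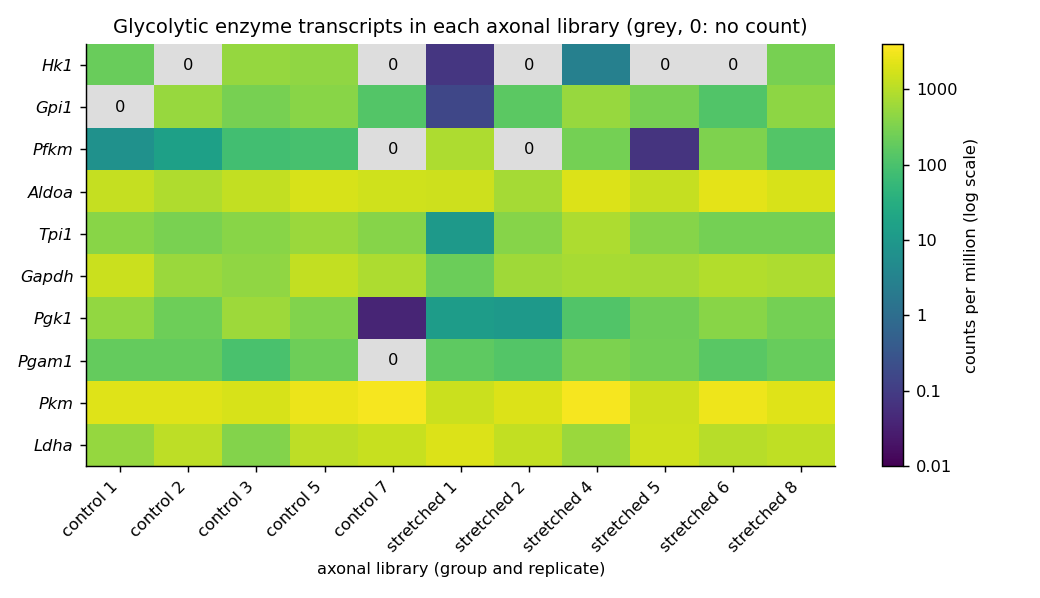
CPM of each gene in each of the 11 axonal libraries on a logarithmic colour scale; grey cells marked 0 had no count. Aldoa, Gapdh, Pkm and Ldha are high in every library, while Hk1 has 5 empty libraries.

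The stretch comparison within axons called 0 of the 10 genes and 0 of 4947 genes tested (0% called; edgeR adjusted p under 0.05), with 0 of the 10 and 46 of all at an unadjusted p under 0.05. DESeq2 called 18 genes and 0 of the 10. Gapdh had 1382, 578, 463, 1214 and 804 CPM in control axons and 218 to 892 CPM, median 732, in stretched axons, a log2 fold change of -0.41 (SE 0.49). Ldha had 524, 1078, 364, 1092 and 1328 CPM in control axons and 573 to 2048 CPM, median 1177, in stretched axons, a log2 fold change of 0.46 (SE 0.41). The groups overlapped for all 10 genes. SEs ran from 0.28 for Pkm to 2.84 for Hk1, against 0.06 to 0.13 in somata, so a difference of the size seen in somata was not detectable here for most of the genes.

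Whether stretch acted differently in the 2 compartments was tested by the interaction over all 23 libraries, which called 21.8% of 16113 genes (12.8% higher, 8.93% lower) and 0 of the 10 members. The estimate, axon minus soma, was 0.19 (SE 0.50) for Gapdh, 0.80 (SE 0.45) for Ldha, 0.10 (SE 0.32) for Pkm and -2.43 (SE 2.78) for Hk1. Hk1 was called without stretched axonal replicate 8, the one stretched axonal library with more than 3 CPM of it, at -9.19 (SE 2.65, edgeR adjusted p = 0.015). Leaving it out kept only stretched axonal libraries at or near 0, so this call follows from the choice of library. That fit called 3832 of 16099 genes, 2392 of them lower. Of the 67 other pathway genes, 60 were tested, and 8 were called higher by this interaction and 0 lower, near the 12.8% of all genes called higher. Pdk1 and Pdk2, kinases that restrain pyruvate dehydrogenase, and Slc2a8, a glucose transporter, led them. The fit takes 1 spread per gene over both compartments, though axonal libraries spread more widely. Stretch within axons alone called 0 of 4947 genes, so the interaction calls are uncertain. Without control axonal replicate 5 the interaction called 14 pathway genes higher, and without stretched axonal replicate 8 it called 5 higher and 4 lower. These 2 libraries had counts for 10242 and 10065 genes, against 4263 to 7012 in the other axonal libraries. The part of this in the axonal calls was not tested. Pdk1 had a mean of 0.00777 CPM in control and 242 CPM in stretched axons, where 3 of 6 libraries had counts, and Slc2a8 had no count in control axons and counts in 2 of 6 stretched axonal libraries.

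The last comparison set axons against somata of the same kind of culture. In control cultures 35.3% of 14728 genes were called (34.4% lower and 0.856% higher in axons), and 0 of the 10 members. The median log2 fold change, axon minus soma, was -1.40 for all genes and -0.22 for the members. In stretched cultures 29.3% of 14466 genes were called (28.4% lower, 0.843% higher), and again 0 members, with medians of -1.13 and 0.05. Mean soma levels of the members ran from 142 to 1490 CPM, while all genes tested include lower ones, such as Hk2 at 17.0 CPM. No genes of like level were set beside the members. In control cultures the member SEs ran from 0.18 for Pkm to 1.73 for Hk1, so 0 called does not mean equal levels. These comparisons share their libraries with the stretch comparisons. By total counts alone, without TMM normalization, the median of all genes moved to -1.27 and -0.73, and Aldoa was called higher in axons in control (log2 fold change 0.58, SE 0.18, edgeR adjusted p = 0.020) and stretched cultures (0.97, SE 0.24, edgeR adjusted p = 0.0076). So was Pkm, at 0.55 (SE 0.15, edgeR adjusted p = 0.012) and 0.73 (SE 0.20, edgeR adjusted p = 0.013), and Ldha in stretched cultures, at 0.97 (SE 0.26, edgeR adjusted p = 0.010). With TMM normalization, Aldoa stood at 0.36 (SE 0.22) and 0.51 (SE 0.28), Pkm at 0.31 (SE 0.18) and 0.26 (SE 0.23). In control cultures the Pkm ranges did not overlap, 1866 to 3263 CPM in axons against 1491 to 1847 in somata, nor did those of Pfkm, 0 to 94.5 against 114 to 203. Over all genes tested, 0.978% lay apart in the higher and 40.6% in the lower direction. In stretched cultures Hk1 was the 1 member with separate ranges, lower at 0 to 289 against 457 to 526 CPM, where 34.6% of all genes lay apart in the lower and 1.35% in the higher direction. Aldoa was also called in control cultures without control axonal replicate 2 (0.51, edgeR adjusted p = 0.031), and in stretched cultures Aldoa without stretched axonal replicate 2 (0.70, 0.0032) and Ldha without replicate 4 (0.61, 0.0081). Hk1 was called lower in stretched axons without stretched axonal replicate 8 (log2 fold change -10.21, edgeR adjusted p = 0.0023). That library held 289 CPM of Hk1 and the next highest 2.80, so this call too follows from leaving it out.

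Of the 67 other pathway genes, 17 of 58 tested were lower in control axons and 0 higher, and in stretched axons 8 of 57 were lower and 2 higher. Over all genes tested, 34.4% were lower and 0.856% higher in control axons, and 28.4% and 0.843% in stretched axons. The 2 pathway genes higher in stretched axons were Eno1, at 2347 against 1049 CPM (log2 fold change 0.68, SE 0.17, edgeR adjusted p = 0.0061), and its near-copy Eno1b, at 0.800 against 0.263 CPM (1.11, SE 0.36, edgeR adjusted p = 0.036). In control axons Eno1 stood at 0.12 (SE 0.26). The number lower in stretched axons was 16 without stretched axonal replicate 8. Hk2, the inducible hexokinase, had no count in any of 5 control axonal libraries, which put it at least 102-fold below its soma level of 17.0 CPM, against the floor of 3 counts per library. Slc16a7, a monocarboxylate transporter of neurons, was at least 151-fold and Slc2a8 at least 124-fold lower in the same way. In stretched axons Pfkfb2 had no count and was at least 126-fold below its 23.2 CPM in somata. These bounds hold for the libraries and cover counting error only, so they do not bound the level in axons. Hk1, for one, was at 0 in control axonal replicates 2 and 7 and at 511 and 479 CPM in replicates 3 and 5.

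Where isozymes compete for a step, the members made up different shares of the level per kb. Hk1 was 91.4% to 96.4% of Hk1 and Hk2 in control somata and 92.6% to 94.1% in stretched somata. Pfkm was 49.3% to 60.6% of the 3 phosphofructokinase genes in control and 54.1% to 61.2% in stretched somata. Aldoa was 42.4% to 67.0% of Aldoa and Aldoc in control and 46.8% to 64.5% in stretched somata, since Aldoc, an aldolase of astrocytes, was at 933 to 1392 CPM in the high and 505 to 726 CPM in the low set of control somata. Ldha was 59.3% to 73.0% of Ldha and Ldhb in control and 64.1% to 72.6% in stretched somata. All 4 shares overlapped between stretched and control somata, and the fall of Ldhb was not called with the length and GC offsets or by total counts. In axons the shares spread widely, from 24.4% to 77.3% for Aldoa and from 32.8% to 98.1% for Ldha.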

How the data were processed

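RNA was prepared from 23 libraries with poly(A) selection and a low-input kit and sequenced as paired ends with molecular identifiers, per the labels' protocols. The authors deposited 1 table of whole-number read counts per gene and library. Per the submitters' processing notes, the tools were fastp 0.20.1, STAR 2.7.08a, HTSeq 0.13.5, FastQC 0.11.9 and MultiQC 1.12, with build mm10. The annotation release, the strand setting and the use of the molecular identifiers are not given in the sources used here, so intervals and floors would cover counting error only. The 5 uncounted totals of each table were kept out of library sizes. Symbols came from GENCODE M21 (55141 of 55487 IDs matched).

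CPM was computed from total gene counts, and levels between genes were set per kb of annotated exons. Tests used edgeR 4.0.16 (R 4.3.3) with filterByExpr, TMM normalization and the quasi-likelihood test, Benjamini-Hochberg adjustment over all genes tested and a threshold of 0.05, after the procedure was tested on simulated data. Only the groups compared entered each fit, and the interaction used all 23 libraries. Alternatives were DESeq2 1.42.0, other normalizations, no filter, a replicate block, left-out libraries, the sets split by Eif2s3y, and offsets for length and GC content (mgcv 1.9.3). Near-copies were searched in annotated transcripts, in place of the genome planned, with 100-base windows. All 10 genes were named; of the other pathway genes, fixed isozymes and transporters and the 3 highest and 3 lowest called. The members and lists were chosen with earlier results of these data known.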

Additional observations from a re-analysis of the deposited data

Results flagged for a closer look

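In 5 of the 40 combinations of a gene and a group, 1 library stood far from the rest, with a gap to its nearest neighbour above Dixon's critical value. Chance alone gives this in about 1 in 20 groups. Hk1 had 289 CPM in stretched axonal replicate 8, and 2.80 CPM in the next library. Hk1 also had 526 CPM in stretched soma replicate 1, with 481 in the next. Aldoa had 876 CPM in control soma replicate 1, with 913 in the next library above. Tpi1 had 222 CPM in stretched soma replicate 6, with 256 next above. Pgam1 had 131 CPM in control soma replicate 4, with 159 next above, and this is the control library that lay with the stretched ones on the first principal component.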

How the results depend on the processing

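Leaving out 1 library at a time gave 2666 to 6072 genes and 5 to 9 members called for stretch in somata, the highest without control replicate 4. For axon against soma it gave 4542 to 8151 genes in control and 4174 to 6499 in stretched cultures, and for these and the interaction 0 to 1 members. With offsets from the longest transcript, 2487 genes and 1 member were called in somata, with the replicate block added 1869 and 1, and without control replicate 4 2 members. With offsets from the principal transcript the numbers were 2182 and 1, with the replicate block 1676 and 1, and without control replicate 4 4 members. Under these 6 offset settings Aldoa turned positive, at 0.14, 0.16, 0.19, 0.14, 0.15 and 0.18, and Pgls stood at 0.0099 and 0.029 under the principal-transcript offsets without the block. The cause was not tested. Within the libraries low in Eif2s3y, 0 genes and 0 members were called, and without control replicate 4 4462 and 6.

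DESeq2 called 18 genes for stretch in axons, 1 member (Aldoa, 0.62, adjusted p = 0.041) between stretched axons and somata and 1466 genes for the interaction. Without the filter, 10714 and 10931 genes differed between axons and somata of control and stretched cultures, and by total counts 2 and 3 members. The replicate block called 5 members and 3209 genes in somata, 7687 genes and 1 member (Hk1) between stretched axons and somata, and 6 genes for the interaction. In somata the block left Aldoa (adjusted p = 0.15), Pgk1 (0.081), Ldhb (0.077) and Pgls (0.081) uncalled and called Hk2 (0.030) and Slc2a3 (0.016). Same-numbered soma libraries correlated at 0.316, 0.285, 0.128, 0.0028 and 0.397, so 1 of 5 pairs showed no shared deviation, and 2 of 5 correlated best with their own number; the numbers were not taken as pairs. Hk2 and Eno2 changed sign in the interaction when 1 library was left out, with ranges of -0.55 to 6.57 and -2.20 to 10.89. The summed TMM-normalized CPM of the 10 genes was 6458 in control and 5259 in stretched somata. With windows of 150 bases the repeated share was 2.89% for Pkm and 0% for Gpi1, Tpi1 and Ldha.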
